A study of Drosophila mauritiana and Drosophila melanogaster and Drosophila simulans with 12 samples.

Results

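Ribosomal protein genes of the cytoplasm, found by a FlyBase symbol beginning with RpL (large subunit) or RpS (small subunit), were followed in the eye-antennal imaginal discs of 3 *Drosophila* species. A total of 81 genes fulfilled this rule among the 13311 genes common to both tables of read counts based on reciprocal re-annotation, 47 for the large and 34 for the small subunit. The names table holds 92 such symbols, and the remaining 11 have no row under their current identifier in these tables and were not analysed here, except for *RpS15Aa*. All libraries were made from discs of female larvae at 120 h after egg laying, raised at 25 °C, with 40 to 50 discs and 500 ng of RNA per library. Reads were single-end of 50 bp for *D. melanogaster* OreR (replicates A to C) and *D. mauritiana* TAM16 (A to C). They were paired-end of 100 bp for *D. mauritiana* TAM16 (D to F) and *D. simulans* YVF (A to C), and these the authors split to 50 bp. Each species is represented by 1 strain, so strain and species cannot be told apart.

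The ribosome translates mRNA into protein. Its small subunit decodes the mRNA and its large subunit joins the amino acids, and most proteins of both subunits are needed in equal numbers in every growing cell. In *Drosophila*, loss of 1 copy of many of these genes causes the Minute phenotype of slow development and short bristles, and Minute cells are eliminated by their neighbours in mosaic imaginal discs. Several ribosomal proteins are encoded by a pair of genes, of which one is used throughout the body and the other mainly in the germline. *RpL22-like* is known from the male germline, and *RpS5b* and *RpS19b* from the ovary. The genes named *RpLP0-like*, *RpL7-like* and *RpL24-like* are different, since their yeast relatives Mrt4, Rlp7 and Rlp24 act in the assembly of the large subunit and are not part of the finished ribosome.

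Coding sequences of the 81 genes were short. The models in *D. mauritiana* ranged from 68 nt in *RpL41* to 1249 nt in *RpL3*, with a median of 471 nt against 1179 nt for all genes. In 76 of the 81 genes the model had the same length in all 3 species, and the largest difference was 12 bp (*RpS5b*). The models were spread over the genome, with 23 genes on arm 3R of *D. melanogaster*, 18 on 2R, 16 on 2L, 12 on 3L, 11 on X and 1 on chromosome 4. In 80 of the 81 genes the *D. mauritiana* model lay on the same chromosome. The exception was *RpS15Ab* (FBgn0033555), which is on 2R in *D. melanogaster* and whose model aligned to X of the published *D. mauritiana* genome, from 12354270 to 12354662.

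Read counts per library over all genes of the tables ranged from 17170747 to 34063962 in the single-end libraries and from 121468882 to 162437570 in the paired-end libraries, where 1 cDNA fragment can give several counts. Expression is given as CPM, for which counts were divided by the effective library size after TMM scaling, and, where genes are compared with each other, as RPKM (CPM per kilobase of coding sequence). Both comparisons were normalized separately, so levels from single-end and paired-end libraries can be set side by side but not tested. Summed CPM of 12 marker genes of the eye-antennal disc lay between 1561 and 1918 in all 12 libraries, and all of them were detected. Markers of other tissues varied more. The 6 fat body markers summed to between 162 and 5489 CPM in the single-end and between 24.2 and 149 CPM in the paired-end libraries, the 5 hemocyte markers to between 217 and 1289 CPM and the 4 muscle markers to between 30.8 and 551 CPM in the single-end and between 585 and 1734 CPM in the paired-end libraries, and the 4 salivary gland markers to between 5.26 and 229 CPM. Their part in the results on ribosomal protein genes was not tested. The study mentions bases of low quality for *D. simulans* C and for replicates A, D and E of *D. mauritiana*.

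The 81 ribosomal protein genes took up a large part of all reads. Their share of the counts was 22.7, 23.1 and 16.9 % in *D. mauritiana* A, B and C and 16.8, 21.0 and 19.5 % in *D. melanogaster* A, B and C. In the paired-end libraries it was 13.7, 13.1 and 14.8 % in *D. mauritiana* D, E and F and 16.5, 14.5 and 14.7 % in *D. simulans* A, B and C. The ranges of *D. mauritiana* and *D. melanogaster* overlapped, and so did those of *D. mauritiana* and *D. simulans*, so neither species differed from *D. mauritiana* by more than its libraries differed from each other. Every paired-end library of *D. mauritiana* lay below every single-end library of the same strain (mean 13.9 % ± 0.86, SD, n = 3, against 20.9 % ± 3.44, SD, n = 3). Read type and set of libraries changed together here and cannot be told apart. In RNA of whole discs, fewer cells of a type and less RNA per cell cannot be told apart either.

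**Figure D1:**
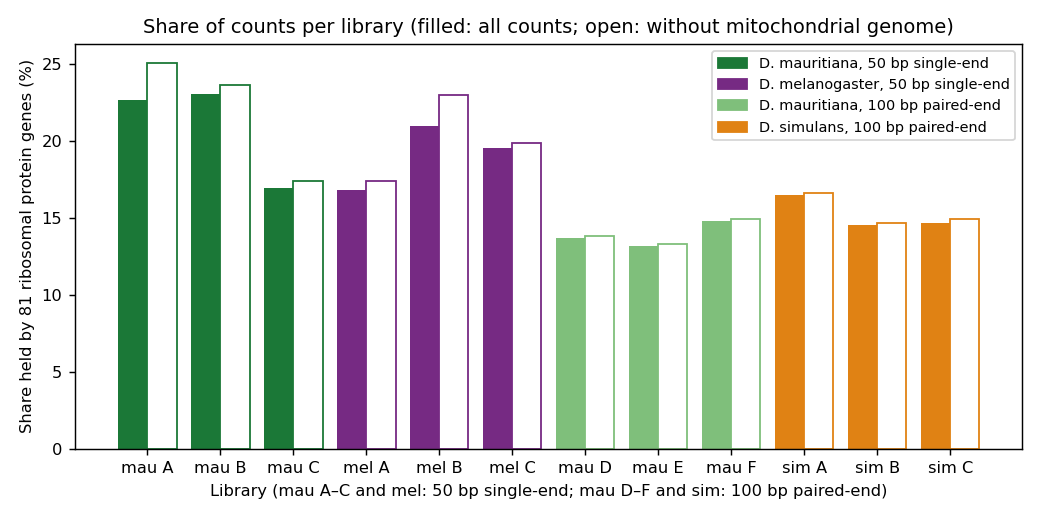
Share of the read counts (%) held by the 81 ribosomal protein genes in each of the 12 libraries, of all counts (filled bars) and of the counts left without transcripts of the mitochondrial genome (open bars). The filled bars lie between 16.8 and 23.1 % in the single-end libraries and between 13.1 and 16.5 % in the paired-end libraries.

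Transcripts of the mitochondrial genome took up 9.49 % of the counts in *D. mauritiana* A and 8.87 % in *D. melanogaster* B, against 1.85 to 3.54 % in the other 4 single-end libraries and 0.729 to 1.47 % in the paired-end libraries. Without them, ribosomal protein genes held 25.1 % of the counts in *D. mauritiana* A and 23.0 % in *D. melanogaster* B. When each count was divided by the length of its model, which removes the disadvantage of short genes, the share rose to between 33.6 and 40.7 % in the single-end libraries and between 30.7 and 34.5 % in the paired-end libraries.

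The balance between the subunits was nearly constant. Small subunit genes held between 42.9 and 43.3 % of the ribosomal protein counts in the single-end libraries and between 42.0 and 42.2 % in the paired-end libraries. Of the ribosomal protein counts, the 27 shortest genes (68 to 421 nt) held 28.3, 28.0 and 26.2 % in *D. mauritiana* A, B and C and 26.1, 27.5 and 26.1 % in *D. melanogaster* A, B and C, but only 24.1 to 25.3 % in the 6 paired-end libraries. The 27 longest genes (588 to 1249 nt) held between 37.6 and 42.5 % in the single-end and between 44.2 and 46.5 % in the paired-end libraries. The single-end libraries with the larger share of ribosomal protein reads (*D. mauritiana* A and B and *D. melanogaster* B) were also those in which the shortest genes held most.

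By RPKM, 68 or 69 of the 81 genes belonged to the 100 most abundant genes of each library, and the median rank of a ribosomal protein gene lay between 46 and 52. Most of them were expressed at very similar levels. When ordered by their mean RPKM over the 12 libraries, the second gene (*RpL39*) was only 4.86 times higher than the 69th (*RpLP0*). *RpL41*, which encodes the smallest protein of the ribosome, stood apart at the top with 42703, 46328 and 32946 RPKM in *D. mauritiana* A, B and C, 29840, 34387 and 34002 RPKM in *D. melanogaster* A, B and C, 26672, 23073 and 33170 RPKM in *D. mauritiana* D, E and F and 29895, 27512 and 28884 RPKM in *D. simulans* A, B and C. It was the most abundant ribosomal protein gene in all 12 libraries, and its values overlapped between the species. Its model of 68 nt is only slightly longer than a read, and the part of this in its RPKM was not tested.

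Below *RpL41* and *RpL39* (lowest 7331, median 10662, highest 20954 RPKM) followed *RpS27A*, *RpS29*, *RpL40*, *RpS25*, *RpS23*, *RpS30*, *RpS26* and *RpS15*, with mean levels between 6045 and 8212 RPKM. *RpS27A* and *RpL40* are made as fusions with ubiquitin. Within libraries, *RpL39* was above *RpS27A* and *RpS27A* above *RpS15* in 12 of 12, although the ranges of *RpS15* (3979 to 10768 RPKM) and *RpS27A* (5241 to 13246 RPKM) overlapped over all libraries. Of the neighbours in this order, *RpS23* was above *RpS30* in 12 and *RpS29* above *RpL40* in 11 of 12 libraries. The other neighbouring pairs changed their order between libraries, with *RpS27A* above *RpS29* in 8, *RpS25* above *RpS23* in 8, *RpL40* above *RpS25* in 7, *RpS26* above *RpS15* in 7 and *RpS30* above *RpS26* in 6. The genes whose relatives act in ribosome assembly were clearly lower, with means of 459 RPKM for *RpL24-like*, 170 RPKM for *RpL7-like* and 149 RPKM for *RpLP0-like*. *RpL34a*, the lesser copy of a large subunit protein, had a mean of 1082 RPKM.

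**Figure D2:**
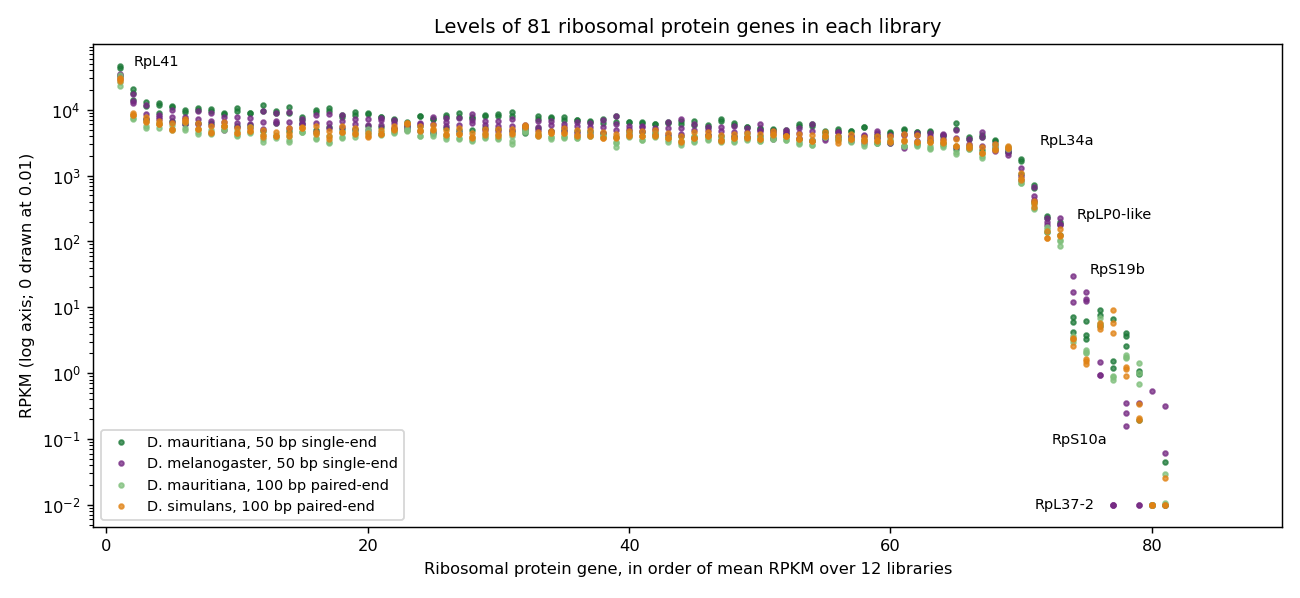
RPKM (log axis) of the 81 ribosomal protein genes, ordered from left to right by their mean over 12 libraries, with 1 point per library coloured by group. *RpL41* lies at the top left, 73 genes stay above 80 RPKM in all libraries, and the 8 genes at the right lie below 31 RPKM.

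Between libraries of 1 group, ribosomal protein genes rose and fell together. For 73 genes, all those with a mean above 1000 counts, RPKM was lowest in replicate C among *D. mauritiana* A to C for all 73, and highest in A for 65 and in B for 8. Among the *D. melanogaster* libraries, A was lowest for 68 genes and B highest for 68. Replicate E was lowest for 61 and F highest for 71 in the paired-end *D. mauritiana* libraries, and replicate A was highest for 71 in *D. simulans*. The highest library exceeded the lowest by a median of 1.56-fold in single-end *D. mauritiana*, 1.40-fold in *D. melanogaster*, 1.15-fold in paired-end *D. mauritiana* and 1.20-fold in *D. simulans*. Ribosomal protein genes are therefore not independent of each other in a comparison between species. In the single-end libraries the summed fat body markers moved the opposite way, with 683, 976 and 2176 CPM in *D. mauritiana* A, B and C and 5489, 162 and 4810 CPM in *D. melanogaster* A, B and C. The hemocyte markers did so in *D. melanogaster* (1289, 217 and 1109 CPM), but not in *D. mauritiana* (448, 250 and 409 CPM). In *D. simulans*, where replicate A was highest for most members, it was also highest for fat body (149 against 30.1 and 24.2 CPM) and hemocyte markers (786 against 469 and 348 CPM). In *D. mauritiana* A, B and C, muscle (217, 314 and 30.8 CPM) and salivary gland markers (168, 229 and 27.9 CPM) were lowest in C, like the ribosomal protein genes. The muscle markers moved the opposite way in *D. melanogaster* (551, 173 and 496 CPM). In *D. mauritiana* D, E and F the fat body markers did so (47.6, 57.2 and 39.5 CPM), but the muscle markers were lowest in E (907, 585 and 788 CPM). The part of these tissues was not tested.

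Some members varied more than others. *RpL29* ranged 3.64-fold over the 12 libraries, *RpL28* 3.39-fold and *RpS20* 3.37-fold. *RpLP0* and *RpLP2*, parts of the stalk of the large subunit, and *RpL7A* stayed within 1.36-fold. These ranges include the step between single-end and paired-end libraries, which were normalized separately. *RpL29* was highest in *D. mauritiana* A (11722 RPKM) and lowest in *D. mauritiana* E (3216 RPKM). Within single-end *D. mauritiana* alone it ranged 2.47-fold, the most of the 73 abundant genes there. *RpL29*, *RpS20* and *RpL7A* are named after their values were seen.

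Between *D. melanogaster* and *D. mauritiana*, no ribosomal protein gene among the 73 abundant ones was called different. Of the 77 genes that passed the filter on low counts, 4 had an adjusted p-value below 0.05 (quasi-likelihood test of edgeR, Benjamini-Hochberg adjusted over all 9767 genes tested), 2 higher and 2 lower in *D. melanogaster*. This is 5.19 % of the ribosomal protein genes, against 18.2 % of all genes tested. The background was 8.06 % for calls lower and 10.1 % for calls higher in *D. mauritiana*. All 4 called genes (*RpS10a*, *RpL22-like*, *RpS5b* and *RpS19b*) were members with few counts. The log2-fold change, positive for higher expression in *D. melanogaster* throughout this comparison, had a median of -0.18 over the 77 genes and was positive in 12 of them. Of all genes tested, 50.8 % were positive, with a median of 0.01 and quartiles at -0.34 and 0.31. The largest changes among the abundant genes were -0.53 for *RpL34a* (standard error, SE, 0.25, adjusted p = 0.198, edgeR) and 0.22 for *RpL3*, named after its value was seen (SE 0.19, adjusted p = 0.474, edgeR).

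The median depended on single libraries. It was -0.35 without *D. mauritiana* C, -0.31 without *D. melanogaster* B, -0.09 without *D. mauritiana* A and -0.07 without *D. melanogaster* A. The 27 shortest models had a median of -0.28 (24 tested), the 27 of middle length -0.20 (27 tested) and the 27 longest -0.11 (26 tested). *RpS29*, a zinc-binding protein of the small subunit, was the only abundant gene whose libraries did not overlap, with 2108, 1962 and 1475 CPM in *D. mauritiana* and 1181, 1379 and 1281 CPM in *D. melanogaster*. Its log2-fold change was -0.53 (SE 0.18, adjusted p = 0.0926, edgeR), and the adjusted p was 0.037 in DESeq2 and 0.0266 in edgeR without *D. mauritiana* C. In all, libraries did not overlap in 2 of the tested genes higher and 3 lower in *D. melanogaster*, where 18.1 and 19.5 % of all genes tested had no overlap in these directions.

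Between *D. simulans* and *D. mauritiana*, 79 genes were tested and 14 were called, 13 higher and 1 lower in *D. simulans*. That corresponds to 17.7 % of the tested ribosomal protein genes, against 25.1 % of all 11121 genes tested. By direction, the 13 calls higher in *D. simulans* stand against 12.1 % of all genes tested, and the 1 call lower against 13.0 %. Changes of the abundant genes were small. The log2-fold change, positive for higher expression in *D. simulans*, lay between -0.31 and 0.48 for the 73 abundant genes with a median of 0.19, and it was positive in 69 of the 79 tested genes against 50.3 % of all genes. The median of all genes was 0.00. The summed muscle markers also separated these groups, with 585 to 907 CPM in *D. mauritiana* D to F and 1443 to 1734 CPM in *D. simulans*, and their part in the shift was not tested. In 26 of the 79 genes every *D. simulans* library lay above every *D. mauritiana* library and in 3 below, against 21.6 and 23.0 % of all genes tested.

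*RpS3A*, a protein of the small subunit, had the lowest adjusted p of the abundant genes. Its values were 3918, 3832 and 4093 CPM in *D. mauritiana* D, E and F and 4894, 5006 and 5024 CPM in *D. simulans* A, B and C. All *D. simulans* libraries were thus higher, with a log2-fold change of 0.33 (SE 0.05, adjusted p = 0.00241, edgeR), or 26.0 %. *RpL10*, which lies near the catalytic centre of the large subunit, had 2995, 2972 and 2984 CPM in *D. mauritiana* and 3591, 3419 and 3520 CPM in *D. simulans*. Here the spread within *D. mauritiana* was particularly small, and the log2-fold change was 0.23 (SE 0.04, adjusted p = 0.00897, edgeR). *RpLP0-like* had 77.6, 65.2 and 80.2 CPM in *D. mauritiana* and 121, 93.0 and 96.8 CPM in *D. simulans*, the largest log2-fold change of the abundant genes (0.48, SE 0.12, adjusted p = 0.030, edgeR).

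The other called genes of the large subunit were *RpL36* with a log2-fold change of 0.41, *RpL9* with 0.34, *RpL11* with 0.28 and *RpLP2* with 0.26. In the small subunit *RpS21* was called with 0.36, *RpS18* with 0.30 and *RpS16* with 0.27. *RpL5* (0.19) and *RpS3* (0.21) completed the calls among the abundant genes and are named after their values were seen. *RpL5* and *RpL11* form, with the ribosomal 5S RNA, a particle that enters the large subunit as a unit. Among all 14 calls, only *RpS3A* and *RpL37-2* remained below 0.05 whichever of the 6 libraries was omitted. The number of called members fell to 2 without *D. mauritiana* D, to 3 without *D. mauritiana* E and to 7 without *D. simulans* C, and the median log2-fold change fell to 0.11 without *D. simulans* A. DESeq2 called 23 members, 21 of them higher in *D. simulans*, with 30.6 % of all genes called.

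**Figure D3:**
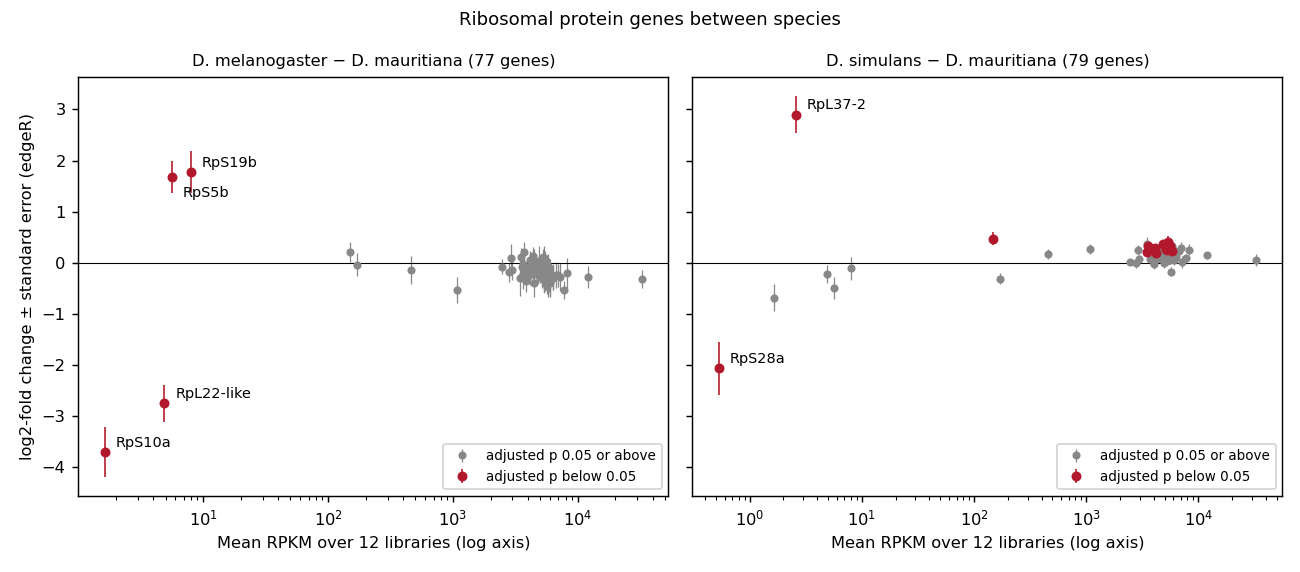
Log2-fold change (± SE, edgeR, 3 against 3 libraries) of ribosomal protein genes in *D. melanogaster* (left, 77 genes) and *D. simulans* (right, 79 genes), each against *D. mauritiana*, plotted against mean RPKM over 12 libraries on a log axis. Red points have an adjusted p-value below 0.05, and the 4 red points on the left all belong to genes with a mean of at most 8.03 RPKM, while the 12 red points of abundant genes on the right lie between 0.19 and 0.48.

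Genes acting with the ribosome were described by lists. Of all genes, 18.2 % were called in either direction in the *D. melanogaster* and 25.1 % in the *D. simulans* comparison. Of 34 translation factors, 1 was higher (*eIF3d1*) and 1 lower (*eEF1alpha2*) in *D. melanogaster* than in *D. mauritiana*. In *D. simulans* 4 were higher (*eEF1beta*, *eEF1delta*, *eIF3j* and *eIF5*) and none lower, and the medians of both comparisons were 0.02 and 0.11. This list includes *Rack1* and *sta*, parts of the small subunit whose symbols the rule does not take, and neither was called. Of 28 ribosome biogenesis factors, 1 was higher in *D. melanogaster* (*nclb*) and 4 in *D. simulans* (*Non1*, *Nop60B*, *Ns1* and *Tif-IA*), with none lower in either species and medians of 0.23 and 0.18. The 70 mitochondrial ribosomal proteins had 2 calls in *D. melanogaster* and 8 in *D. simulans*, all higher than in *D. mauritiana*, and medians of 0.14 and 0.19. With calls in either direction counted, the share of called genes was below that of all genes in each of these 3 lists and in both comparisons. In the *D. simulans* comparison, however, every call of the 3 lists was higher in *D. simulans*, and 12.1 % of all genes were called in this direction. The biogenesis factors (4 of 28), translation factors (4 of 34) and mitochondrial ribosomal proteins (8 of 70) were all close to this share. In the *D. simulans* comparison the medians of the 3 lists have the same sign as that of the ribosomal protein genes, and in the *D. melanogaster* comparison the opposite sign.

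Loss of a ribosomal protein gene is known to induce the transcription factor *Xrp1*. Of 10 genes listed for this response 9 were found, of which 8 were tested against *D. melanogaster* with no call. All 9 were tested against *D. simulans*, and 4 were called, each higher in *D. simulans* (*Xrp1*, *Irbp18*, *GstE6* and *rpr*), where 12.1 % of all genes were called in this direction. *Xrp1* had 582, 564 and 565 CPM in *D. mauritiana* D, E and F and 809, 785 and 725 CPM in *D. simulans* A, B and C, with a log2-fold change of 0.44 (SE 0.06, adjusted p = 0.00283, edgeR). Against *D. melanogaster* its log2-fold change was 0.07 (adjusted p = 0.788, edgeR).

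A second set of 8 ribosomal protein genes was expressed at very low levels. The highest of them by mean counts, *RpL22-like*, had a mean of 418 counts per library, and the lowest of the 73 abundant genes, *RpLP0-like*, had 8024. These 8 genes are *RpS19b*, *RpS5b*, *RpL22-like*, *RpL37-2*, *RpS10a*, *RpS28a*, *RpS28-like* and *RpL10Aa*. Their coding sequence aligned to the *D. mauritiana* genome in 1 exon for 6 of the 8, against 10 of the 73 abundant genes. On X lie 11 of the 73 abundant genes and none of the 8, and 8 genes are too few to call this a difference. Of the 8, 7 have an abundant partner among the members, which lies on X for 6 of them. The exception is *RpL10Aa*, whose partner *RpL10Ab* is on 3L.

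Reads of the low copies can come from an abundant partner with a similar sequence, since the mapping allowed mismatches. The level of each low copy was also expressed as percent of the RPKM of its partner in the same library. This removes differences between libraries that both copies share, but it does not separate misplaced reads from reads of the low copy. With 3 libraries per group, the two-sided exact permutation test of such a ratio cannot give a p below 0.10, and 16 ratios were tested with a smallest p of 0.16 after Benjamini-Hochberg adjustment.

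*RpL22-like* (FBgn0034837) lies on 2R of the *D. mauritiana* genome from 17121088 to 17122020, and its partner *RpL22* (FBgn0015288) on X from 559547 to 561719. It had 136, 246 and 131 counts in *D. mauritiana* A, B and C and 25, 22 and 22 counts in *D. melanogaster*, which correspond to 8.38, 7.24 and 4.90 CPM and 0.860, 1.35 and 0.865 CPM. All *D. melanogaster* libraries were far below those of *D. mauritiana*, with a log2-fold change of -2.75 (SE 0.36, adjusted p = 0.00287, edgeR), or 6.71-fold. In the paired-end libraries the values overlapped, with 6.43, 5.15 and 5.18 CPM in *D. mauritiana* and 4.78, 5.33 and 4.30 CPM in *D. simulans* (log2-fold change -0.22, adjusted p = 0.388, edgeR). In relation to *RpL22*, *RpL22-like* reached 0.186 to 0.236 % in *D. mauritiana* A to C and 0.0309 to 0.0398 % in *D. melanogaster* (exact permutation p = 0.10, two-sided), and 0.170 to 0.270 % in the paired-end libraries of *D. mauritiana* and *D. simulans*. *RpL22* itself had a log2-fold change of -0.13 against *D. melanogaster* (adjusted p = 0.710, edgeR).

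*RpS10a* (FBgn0027494; 3R, from 22617290 to 22617784), a copy of a small subunit protein whose other copy was not analysed here, was named after its values were seen. It had 33, 61 and 34 counts in *D. mauritiana* A, B and C and 5, 2 and 2 counts in *D. melanogaster*, and thus did not overlap. The log2-fold change was -3.70 (SE 0.49, adjusted p = 0.00296, edgeR). In the paired-end libraries it had 104, 124 and 149 counts in *D. mauritiana* and 75, 67 and 94 counts in *D. simulans*, with no overlap in CPM and a log2-fold change of -0.68 that was not called (adjusted p = 0.103, edgeR).

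*RpS5b* and *RpS19b* differed in the opposite direction. *RpS5b* (FBgn0038277) lies on 3R from 10311918 to 10312881, with its partner *RpS5a* (FBgn0002590) on X from 15915761 to 15918850. It had 44, 146 and 62 counts in *D. mauritiana* A, B and C and 255, 192 and 239 counts in *D. melanogaster*, or 2.71, 4.30 and 2.32 CPM against 8.77, 11.8 and 9.40 CPM. The groups were well separated, with a log2-fold change of 1.67 (SE 0.31, adjusted p = 0.0107, edgeR). Its level was 0.0596 to 0.0948 % of that of *RpS5a* in *D. mauritiana* and 0.263 to 0.295 % in *D. melanogaster*, a 3.87-fold higher ratio (exact permutation p = 0.10, two-sided). In *D. simulans* the 139, 159 and 155 counts gave 1.14, 1.07 and 0.959 CPM, below all *D. mauritiana* libraries (1.58, 1.42 and 1.46 CPM), with a log2-fold change of -0.49 that was not called (adjusted p = 0.137, edgeR).

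*RpS19b* (FBgn0039129; 3R, from 19023441 to 19023978; partner *RpS19a*, FBgn0010412, X, from 15419551 to 15420109) had 2.77, 3.36 and 1.98 CPM in *D. mauritiana* A, B and C and 5.71, 14.2 and 8.06 CPM in *D. melanogaster*. The groups did not overlap, but *D. melanogaster* B was far above the other two. The log2-fold change was 1.78 (SE 0.40, adjusted p = 0.0228, edgeR), and the call was lost without *D. mauritiana* A (adjusted p = 0.0648), B (0.0535) or C (0.052) or *D. melanogaster* C (0.063). Relative to *RpS19a*, it was at 0.116 to 0.149 % in *D. mauritiana* and 0.406 to 0.726 % in *D. melanogaster* (exact permutation p = 0.10, two-sided). Against *D. simulans*, the log2-fold change was -0.10 (adjusted p = 0.774, edgeR), with 1.19 to 1.72 CPM over the 6 libraries.

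Markers of the germline moved in part with these genes. The 5 germline markers found in the tables (*bam*, *bgcn*, *aub*, *otu* and *zpg*) summed to between 11.4 and 13.8 CPM in *D. mauritiana* A to C, between 2.40 and 3.85 CPM in *D. melanogaster*, between 11.4 and 13.4 CPM in *D. mauritiana* D to F and between 14.5 and 21.3 CPM in *D. simulans*. Most of the sum came from *aub* and *bgcn*, and *zpg* was at 0 in 5 of the 12 libraries and at 12 counts or fewer in the others. Lower sums in *D. melanogaster* go with lower *RpL22-like* and *RpS10a* but with higher *RpS5b* and *RpS19b*. *bgcn*, which acts in germline differentiation, was lower than in *D. mauritiana* both in *D. melanogaster* (log2-fold change -2.68, adjusted p = 0.00187, edgeR) and in *D. simulans* (-3.27, adjusted p = 0.000918, edgeR). *aub*, which acts in the piRNA pathway, was lower in *D. melanogaster* (-2.24, adjusted p = 0.00358, edgeR) but higher in *D. simulans* (1.44, adjusted p = 0.00337, edgeR). *otu* (1.28 and 0.46) and *bam* (-1.21 and -0.71) were called in neither comparison. The 5 testis markers summed to at most 4.44 CPM in any library. The part of germline RNA in these results was not tested.

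*RpL37-2* (FBgn0034822; 2R, from 16973916 to 16974185), a low copy of the large subunit gene *RpL37-1* (FBgn0030616; X, from 14020205 to 14020555), differed between *D. simulans* and *D. mauritiana* and was not detected in *D. melanogaster*. It had no read in any of the 3 *D. melanogaster* libraries, against 29, 11 and 11 counts in *D. mauritiana* A, B and C. It did not pass the filter there, and with a floor of 3 counts over the 3 *D. melanogaster* libraries it was at least 15.6-fold higher in *D. mauritiana*. This bound rested in part on *D. mauritiana* A (1.79 CPM, against 0.324 and 0.412 CPM in B and C), and it was 8.55-fold without that library, 9.22-fold without *D. melanogaster* A and 10.02-fold without *D. melanogaster* C. In *D. simulans* it had 299, 166 and 253 counts (2.45, 1.12 and 1.56 CPM), in *D. mauritiana* D, E and F 26, 35 and 37 counts (0.209, 0.242 and 0.235 CPM). The *D. simulans* libraries were all higher, with a log2-fold change of 2.90 (SE 0.36, adjusted p = 0.00173, edgeR), or 7.45-fold. *RpL37-2* reached 0.0961 to 0.160 % of *RpL37-1* in *D. simulans* and 0.0194 to 0.0246 % in *D. mauritiana* D to F (exact permutation p = 0.10, two-sided). *RpL37-1* itself had a log2-fold change of 0.30 (adjusted p = 0.127, edgeR).

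**Figure D4:**
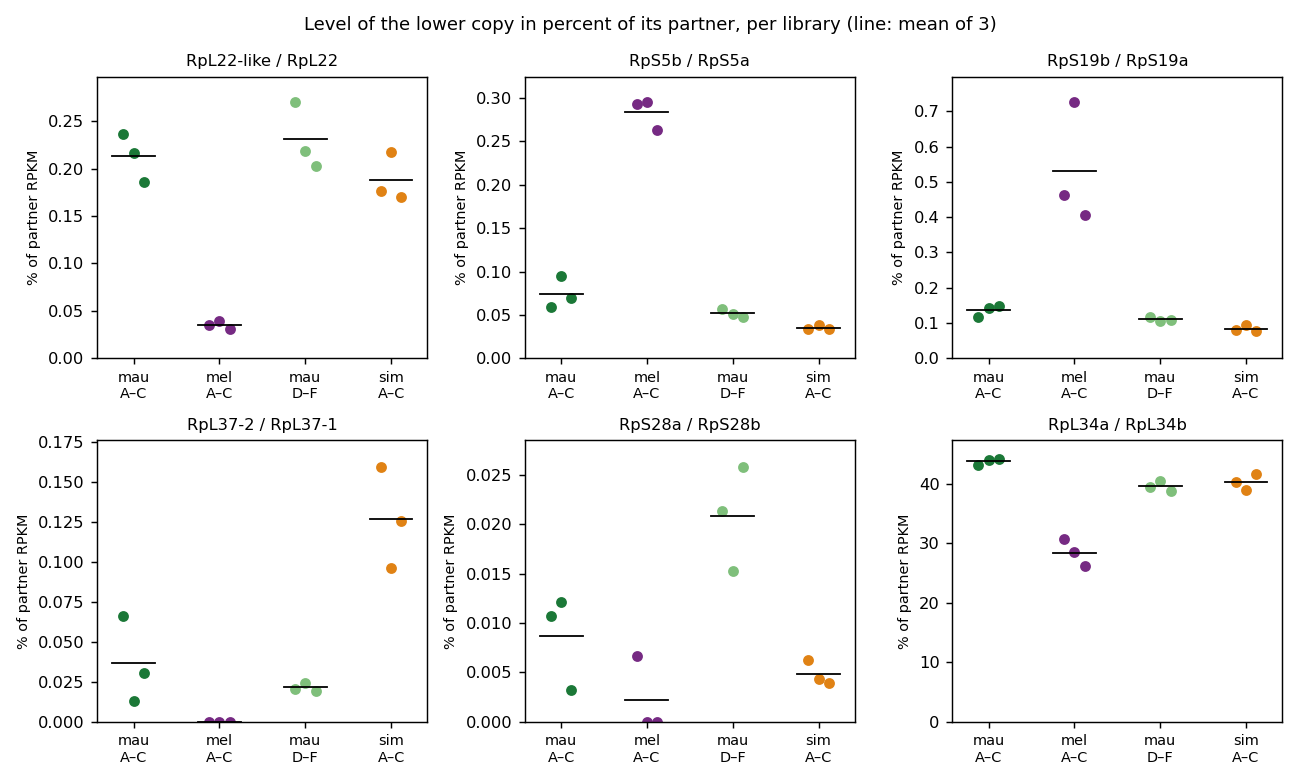
RPKM of 6 lower copies in percent of the RPKM of their partner in the same library, 1 point per library, with the mean of 3 libraries as a line and axes starting at 0. *RpL22-like* and *RpL34a* are lowest in *D. melanogaster*, *RpS5b* and *RpS19b* highest in *D. melanogaster*, *RpL37-2* is highest in *D. simulans*, and *RpS28a* has at most 43 counts per library.

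The other low genes had few reads. *RpS28a* (partner *RpS28b*) had 24, 19 and 43 counts in *D. mauritiana* D, E and F and 8, 6 and 6 counts in *D. simulans*, with a log2-fold change of -2.06 (SE 0.52, adjusted p = 0.0272, edgeR). The call was lost without *D. mauritiana* D (adjusted p = 0.0857) or F (0.0788) or *D. simulans* B (0.0839) or C (0.105). *RpS28-like* had 2 counts in *D. melanogaster* B and none in the other 11 libraries. *RpL10Aa* (partner *RpL10Ab*) had at most 6 counts per library, and neither gene was tested.

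Pairs with 2 well expressed members could be compared more precisely. *RpL34a* (FBgn0039406; 3R, from 21102556 to 21103105) reached 43.2, 44.0 and 44.1 % of *RpL34b* (FBgn0037686; 3R, from 15610267 to 15610841) in *D. mauritiana* A, B and C and 30.7, 28.5 and 26.1 % in *D. melanogaster* A, B and C. The ratio was 1.54-fold higher in *D. mauritiana*, although neither copy was called on its own (exact permutation p = 0.10, two-sided). In the paired-end libraries it was 39.5, 40.6 and 38.8 % in *D. mauritiana* and 40.4, 39.0 and 41.7 % in *D. simulans*, with overlap.

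The genes whose yeast relatives act in ribosome assembly were also compared with their ribosomal relatives. *RpLP0-like* was at 3.76, 3.37 and 3.77 % of *RpLP0* in *D. mauritiana* D, E and F and at 5.61, 4.58 and 4.70 % in *D. simulans*. *RpL7-like*, in contrast, was at 4.32, 4.03 and 4.33 % of *RpL7* in *D. mauritiana* and at 3.17, 2.85 and 2.84 % in *D. simulans*. Both ratios were separated without overlap in opposite directions (exact permutation p = 0.10 each, two-sided). *RpL24-like* was at 10.5, 10.9 and 10.6 % of *RpL24* in *D. mauritiana* and at 10.8, 9.98 and 10.9 % in *D. simulans*. In the *D. melanogaster* comparison all 3 ratios overlapped between the species.

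The counts of pairs also depended on which gene models were in the mapping reference. The tables made with the published annotations lack 9 of the 81 genes for the comparison with *D. melanogaster* and 13 for that with *D. simulans*, while those of the direct re-annotation hold all 81. The 9 genes missing from both are *RpL10*, *RpL22*, *RpL28*, *RpL37-1*, *RpS2*, *RpS7*, *RpS14b*, *RpS15Ab* and *RpS21*, all of them among the abundant members, with means between 2971 (*RpL22*) and 5832 (*RpL10*) RPKM. *RpL26*, *RpL7-like*, *RpS28a* and *RpS5a* are in addition missing from the *D. simulans* table.

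*RpS5b* showed the largest change of the pairs described here. With the published annotations, where the *D. simulans* table has no *RpS5a*, *RpS5b* had 30749, 31186 and 32367 counts in *D. simulans* A, B and C, against 139, 159 and 155 with the reciprocal models of the same reads. This is 196- to 221-fold more, and it equals between 7.12 and 7.66 % of the reads counted for *RpS5a* with the reciprocal models. In *D. mauritiana* D, E and F the counts were 182, 196 and 216 with the published and 197, 205 and 230 with the reciprocal models. In the published table with *D. melanogaster*, *RpS5a* had 71483, 149645 and 86789 counts in *D. mauritiana* A, B and C. The published *D. mauritiana* models thus hold *RpS5a*, and its row is missing on the side of *D. simulans*. The log2-fold change against *D. mauritiana* went from -0.49 to 7.29 (adjusted p = 1.05e-07, edgeR). Absence of the partner from a table did not always go with such a rise. *RpL22* and *RpL37-1* are missing from both published tables. There *RpL22-like* had 796, 739 and 808 counts in *D. mauritiana* D, E and F (reciprocal models 799, 746 and 817). *RpL37-2* had 32, 39 and 52 counts in these libraries (26, 35 and 37) and 316, 171 and 260 counts in *D. simulans* (299, 166 and 253). Each table holds only genes common to both of its species. Whether *RpL37-1* was absent from the *D. simulans* models is therefore not known from a missing row.

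**Figure D5:**
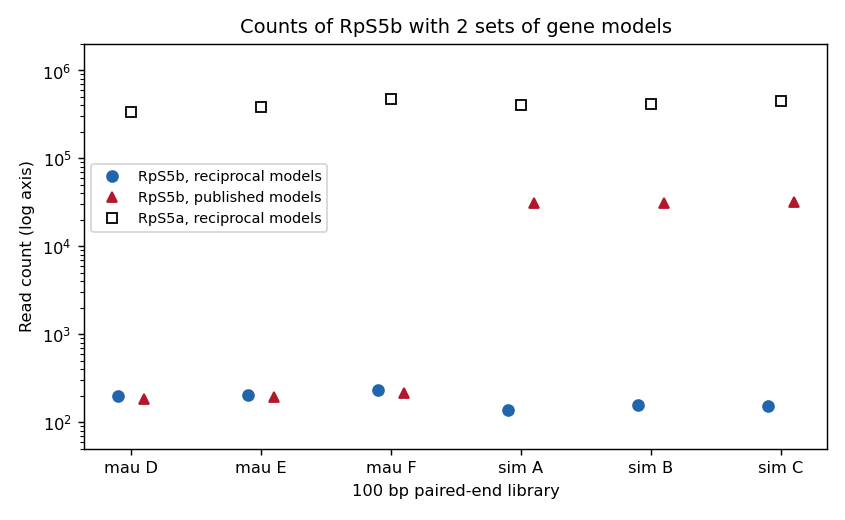
Read counts (log axis) of *RpS5b* with reciprocal (circles) and published (triangles) gene models and of *RpS5a* with reciprocal models (squares) in the 6 paired-end libraries. In the 3 *D. simulans* libraries *RpS5b* rises from 139 to 159 counts to 30749 to 32367 counts. In the 3 *D. mauritiana* libraries the circles and triangles of *RpS5b* all lie between 182 and 230 counts.

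*RpS15Ab* also changed with the models. With the direct re-annotation, in which *D. melanogaster* reads were mapped to the complete gene set of that species, it had 20549, 14490 and 18193 counts in *D. melanogaster* A, B and C. With the reciprocal models it had 54858, 38465 and 50054 counts in the same libraries. *RpS15Aa*, its X-linked copy in *D. melanogaster*, occurs only in the published tables, where it had 35537, 24765 and 32520 counts in *D. melanogaster*. Added to the counts of *RpS15Ab* on the direct models this gives 56086, 39255 and 50713, close to the counts of *RpS15Ab* alone on the reciprocal models. In *D. mauritiana* A, B and C, the count was nearly the same under either name, with 33945, 67809 and 41982 for *RpS15Aa* and 33972, 67758 and 41959 for *RpS15Ab* on the direct models. Accordingly, the log2-fold change of *RpS15Ab* was 0.14 (adjusted p = 0.671, edgeR) with the reciprocal and -1.30 (adjusted p = 0.00354, edgeR) with the direct models. Values of *RpS15Ab* with the reciprocal models cannot be assigned to 1 of the copies.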

How the data were processed

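RNA-seq of 12 libraries was used, in 4 groups of 3. The authors deposited read counts per transcript, not normalized, beside model lengths. They mapped 50 bp reads with Bowtie2 (--very-sensitive-local -N 1) to coding sequences of each species without UTRs, kept 1 copy of identical sequences, and summed reads with samtools v0.1.19. *D. melanogaster* models come from FlyBase r5.55, and gene positions refer to the published *D. mauritiana* genome. Strand use is not given in the sources used here.

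Species were compared within the reciprocal tables with edgeR 4.0.16 in R 4.3.3 (TMM, filterByExpr, quasi-likelihood test, adjusted p below 0.05 over all genes). CPM use the TMM-normalized library size, and RPKM are CPM per kilobase. The study calls the replicates biological, and the labels do not say whether they come from separate cohorts of larvae, so p-values measure the spread between these libraries. In simulated data, 99 of 99 genes with an absolute log2-fold change of 2 were recovered in each comparison (9769 and 11149 genes), and 57 of 99 and 53 of 98 with 1. The simulation used the same dispersion for every gene and drew the changed genes from all genes tested. Smaller changes, such as those of the abundant members, were not simulated, so it does not show how well these could be found. Paralog ratios were compared with exact permutation tests on log2 values. Alternatives were DESeq2 1.42.0, other normalizations and filters, a length offset, the other annotations, omission of single libraries and a block for replicate letters. The share of counts without the mitochondrial genome and the bounds of *RpL37-2* without single libraries were added after the data had been seen.

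Members and lists were chosen with earlier results of these data known. Named were the 10 most abundant members, all members with a copy, the 10 called members with the largest positive and negative log2-fold change in each comparison (mean of at least 100 counts, length difference at most 49 bp) and members missing from a published table. Of 13331 identifiers in the table with *D. melanogaster*, 13065 were paired with a symbol. No sequences are shown.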

Additional observations from a re-analysis of the deposited data

How the results depend on the processing

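The number of members called between *D. melanogaster* and *D. mauritiana* was 4 and lay between 3 and 6 with other normalizations, filters, annotations and DESeq2, and between 3 and 5 with 1 library left out. Between *D. simulans* and *D. mauritiana* it was 14, and DESeq2 gave 23 with and 23 without its prior, while leaving out 1 library gave between 2 and 19. The cause of the higher number in DESeq2 was not tested. *RpS5b* changed from -0.49 to 7.29 with the published annotations of *D. simulans* and *D. mauritiana*, and *RpS15Ab* from 0.14 to -1.30 with the direct re-annotation of *D. melanogaster* and *D. mauritiana*. Over single named genes, alternatives left 1424 values on the same side of the threshold, took 47 above it and brought 20 below it. The share of counts in *D. melanogaster* minus that in *D. mauritiana* was -1.79 percentage points and ran from -3.78 to -0.65 with 1 library left out (-3.78 without *D. mauritiana* C, -2.72 without *D. melanogaster* B, -0.90 and -0.70 without *D. mauritiana* A or B, -0.65 without *D. melanogaster* A). For *D. simulans* it was 1.35 and ran from 0.73 (without *D. simulans* A) to 1.82. These moves, and those of each paralog ratio on the log2 scale, were smaller than the SD between replicates pooled over both groups (2.85 and 0.98 percentage points for the shares). With 3 libraries per group, however, leaving 1 out cannot move a difference of means by more than this SD. The comparison with the SD therefore does not show that the values are stable.

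With replicate letters as a block, 4 members were again called between *D. melanogaster* and *D. mauritiana*. Deviations of equal letters correlated with -0.30 (A), 0.225 (B) and 0.217 (C), so the letters do not pair the libraries. No paired analysis was possible in the *D. simulans* comparison because its groups share no letters. *RpS28a*, *RpS28-like* and *RpL10Aa* are limited by depth, and counting error of low copies does not cover reads misplaced from a partner.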
